A study of Mus musculus with 65 samples.

Results

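CTCF sites at which no cohesin, LDB1 or YY1 was called were described in G1E-ER4 cells, a mouse erythroblast line. They were selected on the peak lists of untreated LDB1-AID cells, a subline in which LDB1 carries an auxin-inducible degron. A CTCF peak on chromosomes 1 to 19 and X belonged to the class when it shared not even 1 bp with a peak of RAD21, LDB1 or YY1. By this rule 26590 of 54223 CTCF peaks were members, which was 49.0% (Wilson 95% interval 48.6 to 49.5). They are called CTCF-only peaks here.

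All samples were chromatin immunoprecipitation followed by sequencing (ChIP-seq) of G1E-ER4 sublines. The 4 lists behind the rule each combined 2 replicates of untreated LDB1-AID cells. They were compared with 1 list of LDB1 in LDB1-AID cells after 4 h of auxin (2 replicates), and with 4 lists of SMC3-AID cells, in which the cohesin subunit SMC3 carries the degron. Those 4 held RAD21 and LDB1, each untreated and after 4 h of auxin (3 replicates each). No list had a score or a value per replicate, so a site was either called or not called, and no value below has a replicate error. All groups share the G1E-ER4 background, which lacks endogenous GATA1 and carries an inducible GATA1-ER fusion. Whether a subline is a single clone is not given in the sources used here. Nothing says that replicates came from separate cultures.

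CTCF is a zinc-finger protein that binds a long DNA motif and marks the borders of chromatin domains. Cohesin is a ring complex that contains RAD21 and SMC3. It extrudes chromatin loops and is halted at CTCF, so most cohesin peaks of mammalian cells lie on CTCF sites, while a CTCF site need not hold cohesin. LDB1 is a cofactor that joins erythroid enhancers and promoters through GATA1 and TAL1, and YY1 is a zinc-finger factor found mainly at promoters and enhancers.

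The class made up nearly all CTCF sites that lacked RAD21. Of the 27407 CTCF peaks without RAD21, 97.0% were CTCF-only peaks and 817 carried LDB1 or YY1. The largest other class was CTCF with RAD21 and neither LDB1 nor YY1, with 24848 peaks (45.8%). The remaining combinations were small: 1412 peaks had RAD21 and YY1, 578 had YY1 alone, 388 had RAD21 and LDB1, 205 had LDB1 alone, 168 had all 3, and 34 had LDB1 and YY1. The label holds only for the calls in LDB1-AID cells, since some CTCF-only peaks lay on cohesin of the other subline (below).

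The share of CTCF-only peaks varied little between chromosomes. It ran from 44.3% (41.9 to 46.8) of 1578 CTCF peaks on chromosome 18 to 53.3% (51.7 to 54.8) of 3799 on chromosome 5. Their density varied more, from 3.98 per Mb on X to 17.9 per Mb on chromosome 11, counted up to the last peak of any list. On X the share was 49.8% (47.2 to 52.5), so the low density there went with few CTCF peaks in all (1330). Part of the share on chromosome 5 came from 3 long stretches described below. Without their 105 peaks it was 51.9% (50.3 to 53.5), against 51.7% on chromosome 4, the next highest. The stretches were chosen for their CTCF-only peaks and held no other CTCF peak, so leaving them out lowers the share by construction.

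**Figure D1:**
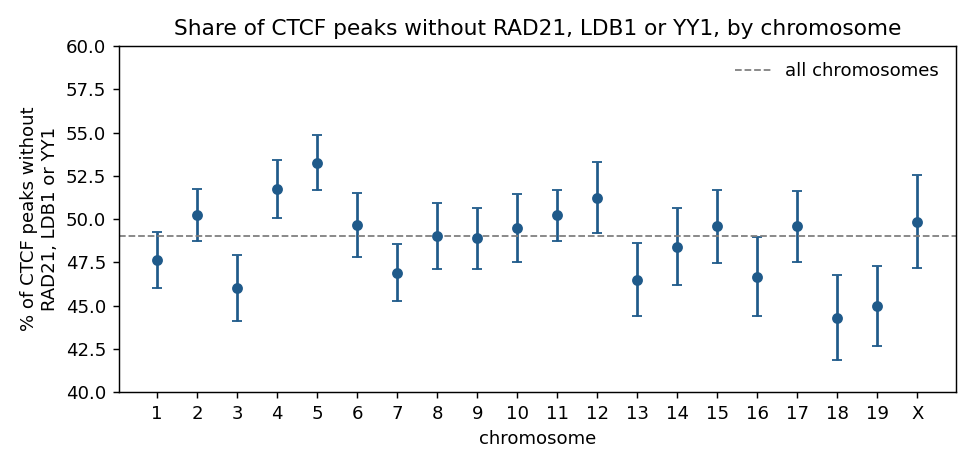
Share of CTCF peaks that had no RAD21, LDB1 or YY1 peak on each chromosome (points, with Wilson 95% intervals) and over all chromosomes (dashed line, 49.0%). The vertical axis runs from 40 to 60%. Values lie between 44.3% on chromosome 18 and 53.3% on chromosome 5.

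CTCF-only peaks had a median spacing close to that of CTCF peaks with RAD21. Distances are given in bp between the facing edges of 2 peaks. The nearest other CTCF-only peak lay at a median of 14.7 kb (95% interval of the median 14.3 to 15.0), with quartiles of 5.21 and 38.2 kb. The corresponding median between CTCF peaks with RAD21 and neither LDB1 nor YY1 was 14.7 kb (14.5 to 15.1), with quartiles of 5.37 and 35.6 kb. The upper tail was longer for CTCF-only peaks, of which 5% had no other within 166 kb, against 127 kb for the class with RAD21. To the nearest CTCF peak of any class the medians were 6.99 kb (6.85 to 7.14) and 6.81 kb (6.67 to 6.96).

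At short range close pairs were more frequent among CTCF-only peaks. Another CTCF-only peak lay within 1 kb of 1335 of them (5.02%), whereas 683 peaks with RAD21 (2.75%) had another of their class within 1 kb. No CTCF peaks of the list overlapped one another, and the smallest gap was 99 bp. Chained at distances up to 25 kb, 9461 CTCF-only peaks (35.6%) stood alone and the others fell into 5334 groups. Of these groups 115 held 10 or more, with 1374 peaks in all (5.17%).

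The 3 largest groups lay in regions that also held cohesin. The group on chromosome 1 (59625133 to 59804721, 179.6 kb) held 22 CTCF-only peaks and 7 other CTCF peaks, with 8 RAD21, 2 LDB1 and 4 YY1 peaks between them. A group on chromosome 11 (115269985 to 115497096, 227 kb) held 22 CTCF-only and 10 other CTCF peaks, with 9 RAD21, 3 LDB1 and 8 YY1 peaks. A group on chromosome 16 (4532996 to 4708252, 175 kb) held 21 CTCF-only and 6 other CTCF peaks, with 11 RAD21, 2 LDB1 and 6 YY1 peaks. The untreated SMC3-AID list had 4, 4 and 6 RAD21 peaks in the 3 regions, and none of them lay on a CTCF-only peak. Dense CTCF-only peaks there were thus interleaved with cohesin sites.

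Most CTCF-only peaks lay within 100 kb of cohesin without touching it. The rule fixed that the distance to RAD21 is not negative, so the distances to the 3 proteins used for selection are a description. The nearest RAD21 peak of LDB1-AID cells lay at a median of 12.5 kb (12.3 to 12.8), with quartiles of 4.40 and 34.6 kb. It was nearer than 1 kb for 1843 peaks (6.93%) and nearer than 10 kb for 43.8%. At the far end, 10.4% had no RAD21 within 100 kb, and the maximum was 3594 kb. On X the median was 33.1 kb, against 9.11 to 18.1 kb on the autosomes.

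The other proteins were farther away, and their lists were shorter. The YY1 list held 12816 peaks and the LDB1 list 10729, against 33160 of RAD21. A shorter list by itself gives longer distances, and its part here was not tested. The nearest YY1 peak lay at a median of 34.7 kb (33.8 to 35.6) and the nearest LDB1 peak at 64.1 kb (62.6 to 65.7). For CTCF peaks with RAD21 and neither LDB1 nor YY1, these medians were 35.5 kb (34.7 to 36.3) and 48.1 kb (47.0 to 49.3). At the median, LDB1 was thus farther from CTCF-only peaks, while the intervals for YY1 overlapped. This order did not hold over the whole range. LDB1 lay within 1 kb of 2.71% of CTCF-only peaks and of 2.21% of peaks with RAD21. The upper quartiles for YY1 were 121 kb and 99.1 kb. The LDB1 list of untreated SMC3-AID cells, which the rule did not use, gave the same order of medians, with 76.0 kb (74.2 to 77.9) against 58.9 kb (57.5 to 60.2). These medians were 88.2 and 69.9 kb after SMC3 degradation, where the list held 7237 LDB1 peaks against 8585 untreated.

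**Figure D2:**
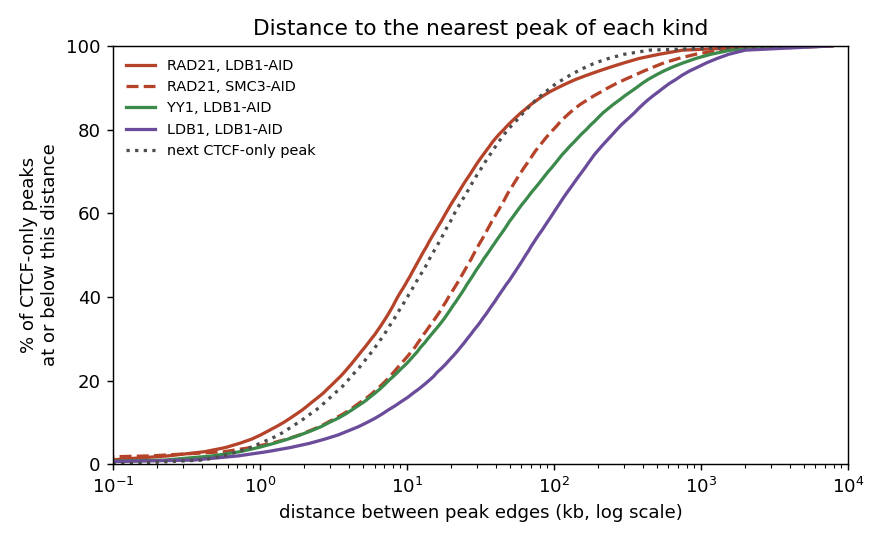
Cumulative share of the 26590 CTCF-only peaks (vertical axis, %) at or below each distance to the nearest peak of another kind (horizontal axis, kb, log scale). RAD21 of LDB1-AID cells is nearest (median 12.5 kb), followed by the next CTCF-only peak (14.7 kb), RAD21 of SMC3-AID cells (28.1 kb), YY1 (34.7 kb) and LDB1 (64.1 kb). In that order these kinds number 33160, 26590, 15223, 12816 and 10729 peaks, and fewer peaks by themselves give longer distances.

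Few sites stood at the border of the rule. Of CTCF peaks, 278 overlapped RAD21 by 1 to 50 bp and were left out, whereas 155 CTCF-only peaks had a gap under 50 bp to RAD21 and 123 a gap of 50 bp to under 100 bp. A gap under 100 bp to LDB1 was found for 68 and to YY1 for 107 CTCF-only peaks, and to any of the 3 proteins for 441. In the class with RAD21 and neither LDB1 nor YY1, the CTCF and RAD21 centres were a median of 54 bp apart, and 95% were within 229 bp.

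The RAD21 peaks next to CTCF-only peaks changed in kind with distance. Over all CTCF-only peaks, the nearest RAD21 peak itself carried a CTCF peak in 85.6% of cases (85.1 to 86.0), where 80.9% (80.5 to 81.3) of all RAD21 peaks did. The first share is counted per CTCF-only peak and the second per RAD21 peak. Only 15122 distinct RAD21 peaks were the nearest of a CTCF-only peak, so many were counted repeatedly, which the intervals do not allow for. When the nearest RAD21 peak was under 100 bp away, it carried another CTCF peak in 8 of 278 cases (2.88%, 1.47 to 5.57). From 100 to 500 bp this share was 32.0% (28.5 to 35.7), and from 500 bp to 1 kb it was 81.4% (78.8 to 83.8). All peaks are 400 bp wide and CTCF peaks do not overlap, which limits how often a second CTCF peak can fit at the shortest distances. Beyond 100 kb the share was 93.9% (93.0 to 94.8).

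RAD21 of untreated SMC3-AID cells gave a readout of cohesin that the rule had not used. Of all CTCF peaks 25.9% lay on such a RAD21 peak. Among CTCF-only peaks 413 of 26590 did, or 1.55% (1.41 to 1.71), against 12670 of 24848 CTCF peaks with RAD21 and neither LDB1 nor YY1, or 51.0% (50.4 to 51.6). The difference was -49.4 percentage points (Newcombe 95% interval -50.1 to -48.8). The share depended on the overlap rule: it was 3.38% when shared peaks had to overlap by at least 50%, and 0.817% when a gap of at most 1 kb counted as shared. For CTCF-only peaks at least 1 kb from RAD21, LDB1 and YY1, an alternative added after seeing the data, it was 0.643%. A total of 26177 CTCF-only peaks (98.4%) therefore had no RAD21 call in either subline. The SMC3-AID RAD21 list was smaller, with 15223 peaks against 33160, so a missing call there is weaker information than a call. Intervals of shares cover counting error only, because peaks are not replicates.

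Where the RAD21 lists of the sublines differed, only calls of SMC3-AID cells could lie on CTCF-only peaks. In LDB1-AID cells 18782 of 33160 RAD21 peaks (56.6%) overlapped none of untreated SMC3-AID cells, and by the rule none of these lies on a CTCF-only peak. In the other direction, of the 15223 RAD21 peaks of untreated SMC3-AID cells, 817 overlapped no RAD21 peak of LDB1-AID cells. Of these, 318 (38.9%) lay on a CTCF-only peak, 99 on another CTCF peak and 400 on no CTCF peak. Of the 14406 that did overlap a RAD21 peak of LDB1-AID cells, 95 (0.659%) also touched a CTCF-only peak. The rule bars CTCF-only peaks from LDB1-AID RAD21, so a peak on both can touch one only near its edge. This low share is therefore a description, as are the offsets that follow. The 318 sites were centred close to CTCF, with a median offset of 60 bp, against 66 bp between SMC3-AID RAD21 and CTCF peaks with RAD21 in LDB1-AID cells. At the 95 sites where the SMC3-AID peak also overlapped RAD21 of LDB1-AID cells, the median offset was 210 bp.

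The share with SMC3-AID RAD21 depended on the distance to LDB1-AID RAD21 and was lowest at middle distances. It was 30.9% (25.8 to 36.6) under 100 bp, 22.9% (19.9 to 26.3) from 100 to 500 bp, and 2.51% (1.68 to 3.74) from 500 bp to 1 kb. Under 100 bp, 69 of the 86 sites sat on an SMC3-AID peak that also overlapped RAD21 of LDB1-AID cells, as did 26 of the 149 from 100 to 500 bp and 0 at longer distances. The share was 0.877% (0.532 to 1.44) from 1 to 2 kb, 0.241% (0.127 to 0.457) from 2 to 5 kb, 0.344% (0.209 to 0.568) from 5 to 10 kb, 0.283% (0.179 to 0.447) from 10 to 25 kb and 0.461% (0.288 to 0.737) from 25 to 50 kb. From 50 to 100 kb it was 1.13% (0.758 to 1.67), and at 100 kb or more it was 2.06% (1.59 to 2.65), or 57 of 2772. This order over the distance classes was noticed in the data and was not tested. The 57 distant sites lay on 18 chromosomes, with at most 8 on any of them, and their centres were a median of 42 bp from the RAD21 centre.

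For comparison, CTCF peaks with RAD21 and neither LDB1 nor YY1 were sorted by the distance to the next RAD21 peak. Of these, 51.2% (49.5 to 52.8) lay on SMC3-AID RAD21 at 25 to 50 kb, 48.7% (46.5 to 50.9) at 50 to 100 kb and 40.2% (37.7 to 42.8) at 100 kb or more. In the most isolated class the share was thus lower than at 25 to 50 kb among peaks with RAD21, and higher among CTCF-only peaks. The difference between these opposite orders was not tested.

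**Figure D3:**
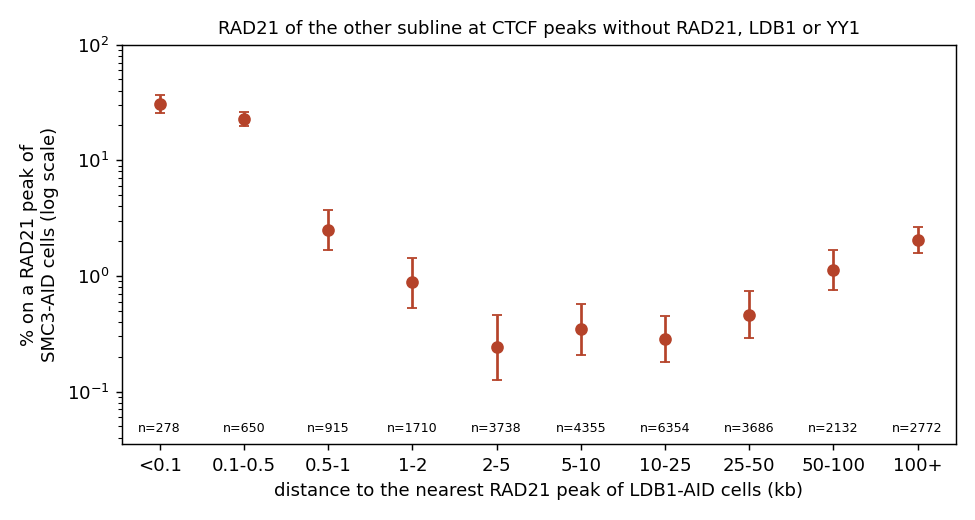
Share of CTCF-only peaks on a RAD21 peak of untreated SMC3-AID cells (vertical axis, %, log scale; points with Wilson 95% intervals) by distance to the nearest RAD21 peak of LDB1-AID cells (horizontal axis, kb). The number of CTCF-only peaks in each class is printed below its point. The share falls from 30.9% under 100 bp to 0.241% at 2 to 5 kb and reaches 2.06% at 100 kb or more.

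CTCF peaks with YY1 but neither RAD21 nor LDB1 resembled the class in lacking a cohesin call, yet 56 of these 578 (9.69%, 7.54 to 12.4) lay on SMC3-AID RAD21. CTCF-only peaks were lower by 8.14 points (Newcombe 95% interval of the difference, CTCF-only minus YY1 class, -10.8 to -5.98). The classes also differed in their distance to RAD21, which was under 1 kb for 26.6% of the peaks with YY1 and for 6.93% of the CTCF-only peaks. Among peaks at 1 kb or more, the shares were 0.943% (0.367 to 2.40) with YY1 and 0.626% (0.535 to 0.733) for CTCF-only, a difference of -0.317 points whose interval included 0 (-1.78 to 0.269). Among peaks under 1 kb from RAD21 they were 33.8% (26.8 to 41.5) and 14.0% (12.5 to 15.7), a difference of -19.8 points (-27.7 to -12.6) that excluded 0. Within this range the CTCF-only share fell with distance, from 30.9% under 100 bp to 2.51% from 500 bp to 1 kb. The classes were not matched for distance inside it, so a remaining effect of distance cannot be told apart.

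After 4 h of auxin in SMC3-AID cells, which degrades SMC3, no CTCF-only peak lay on a residual RAD21 peak. For the count of 0 of 26590 the Wilson 95% interval of the share reached up to 0.0144%. Of all CTCF peaks 0.00369% did, which were 2 peaks of the class with RAD21 and neither LDB1 nor YY1. The residual list held only 24 RAD21 peaks on these chromosomes. With so few peaks a difference between the classes was not detectable (-0.00805 points, Newcombe 95% interval -0.0293 to 0.00753).

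LDB1 lists that the rule had not used touched few CTCF-only peaks. The LDB1 list of untreated SMC3-AID cells covered 23 of them (0.0865%, 0.0576 to 0.130), while 1.0% of all CTCF peaks lay on it. After SMC3 degradation it covered 20 (0.0752%, 0.0487 to 0.116), where 0.896% of all CTCF peaks did. LDB1 peaks still called after LDB1 degradation covered 8 (0.0301%, 0.0152 to 0.0594), against 0.219% of all CTCF peaks. The background contains the CTCF peaks chosen for LDB1, so the class with RAD21 and neither LDB1 nor YY1 is the closer comparison. In that class 23 peaks (0.0926%), 16 (0.0644%) and 10 (0.0402%) lay on the 3 lists. The differences were -0.00606 points (Newcombe 95% interval -0.0606 to 0.0471), 0.0108 (-0.0373 to 0.0587) and -0.0102 (-0.0471 to 0.0244), and each interval included 0.

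These LDB1 sites were 34 in all. On both SMC3-AID lists 13 were found, 10 only before and 7 only after auxin, and 3 lay on all 3 lists. Many were borderline: of the 23 in untreated SMC3-AID cells, 10 lay under 100 bp from an LDB1 peak of untreated LDB1-AID cells, as did 13 of the 20 and 4 of the 8. Another 12, 5 and 4 lay over 1 kb from one. Of the latter, the site on chromosome 1 (158635946 to 158636345) overlapped LDB1 of SMC3-AID cells by 344 bp untreated and 308 bp after auxin, and lay 38911 bp from LDB1 of LDB1-AID cells. A site on chromosome 10 (95567305 to 95567704) overlapped it by 310 and 312 bp, 382254 bp from LDB1 of LDB1-AID cells and 76 bp from a RAD21 peak. Both were singled out after their values were seen. Only 1 CTCF-only peak lay on RAD21 and LDB1 of SMC3-AID cells together.

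Along the chromosome, CTCF-only peaks and other CTCF peaks were mixed with a slight tendency to follow their own kind. After a CTCF-only peak the next CTCF peak was CTCF-only in 51.7% of cases (51.1 to 52.3), and after another CTCF peak in 46.5% (45.9 to 47.1), where 49.0% of all CTCF peaks belonged to the class. The share after a CTCF-only peak was 53.7% (50.9 to 56.5) for gaps under 1 kb and 50.3% (49.0 to 51.7) for 1 to 5 kb. It was 50.4% (49.5 to 51.4) for 5 to 25 kb, 51.3% (50.1 to 52.5) for 25 to 100 kb, and 59.3% (57.5 to 61.2) for gaps of 100 kb or more. Without the share after another CTCF peak at the same gaps, these values do not show at which gaps the tendency held. Of CTCF-only peaks with a CTCF peak on either side, 24.8% had no neighbour of their class, 47.0% had 1 and 28.2% had both. Since the rule chose the class, these shares are a description.

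Uninterrupted runs of CTCF-only peaks were mostly short. The 26590 peaks formed 12850 runs, of which 6605 held a single peak, 3089 held 2 and 1455 held 3. Runs of 5 or more numbered 930 and contained 23.9% of the class. Runs of 10 or more numbered 111 with 1410 peaks (5.30%), and 8 runs held 20 or more.

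**Figure D4:**
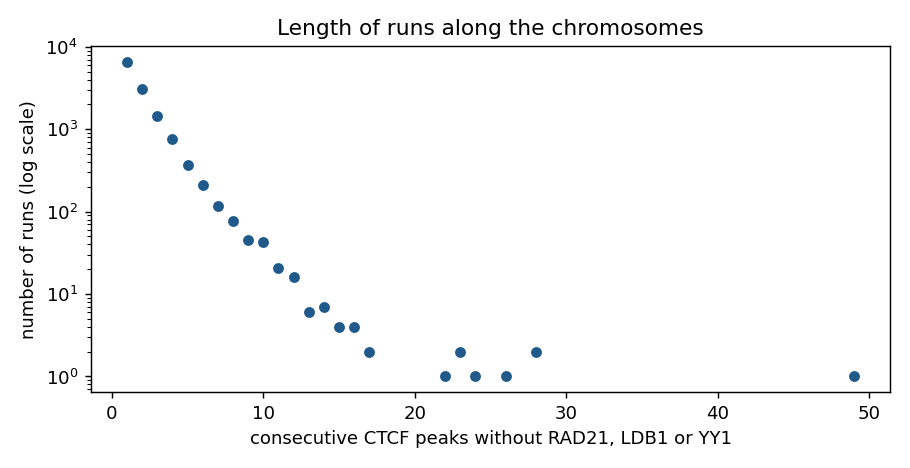
Number of uninterrupted runs of CTCF-only peaks (vertical axis, log scale) by the number of consecutive peaks in the run (horizontal axis). Runs of a single peak number 6605, and a single run reaches 49 peaks.

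The 3 longest runs all lay on chromosome 5, and none of them held any other peak. The longest (126025459 to 128068633, 2.04 Mb) consisted of 49 CTCF-only peaks at a median gap of 21.4 kb, with gaps from 0.997 to 228 kb. A run at 130811323 to 132591470 (1.78 Mb) held 28 peaks at a median gap of 29.6 kb. Another at 150618481 to 151235921 (617 kb) held 28 at a median gap of 19.7 kb. In these runs the lists of RAD21, LDB1 and YY1 of LDB1-AID cells and of RAD21 and LDB1 of SMC3-AID cells, treated or not, had 0 peaks. These zeros follow largely from how runs were chosen. A run ends at any other CTCF peak, 80.9% of RAD21 peaks of LDB1-AID cells carried CTCF, and 94.6% of the RAD21 peaks of untreated SMC3-AID cells lay on RAD21 of LDB1-AID cells.

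The same 3 places were the stretches between successive RAD21 peaks with the most CTCF-only peaks. Those stretches spanned 2.06 Mb (126009939 to 128073004), 1.79 Mb (130796741 to 132591592) and 661 kb (150583289 to 151244299). A single RAD21 peak separated the richest from a further RAD21-free stretch of 1.17 Mb with 24 CTCF-only peaks. Its place was chosen for mention after its values were seen. The 8 richest stretches held 22 to 49 CTCF-only peaks each on chromosomes 1, 5, 6, 9 and 17 and 0 RAD21 peaks of SMC3-AID cells. Because that list lies mostly on LDB1-AID RAD21, few such peaks remain in any RAD21-free stretch, as the densities below show. YY1 peaks were present in 4 of the 8, with 1 or 2 each, and LDB1 peaks in 0. Genes at these places were not assigned, because no gene annotation of this genome build was used here.

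**Figure D5:**
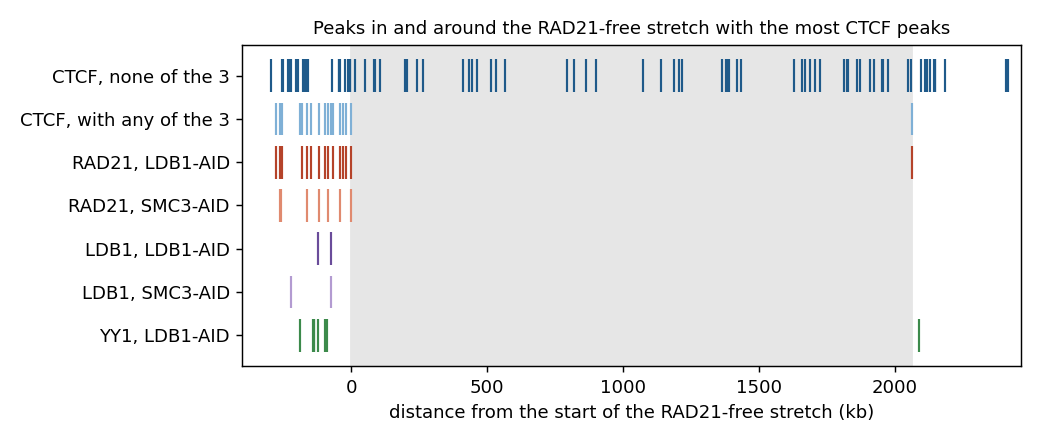
Peaks (vertical ticks) of each list in and around the RAD21-free stretch of chromosome 5 with the most CTCF-only peaks, by distance from the start of the stretch (kb). The grey area is the stretch of 2.06 Mb. CTCF peaks with none of RAD21, LDB1 and YY1 (top) number 49 within it, while the other 6 kinds have no peak inside it and lie mainly to its left.

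Stretches without RAD21 contained CTCF-only peaks at all lengths, at lower density the longer they were. The density was 31.6 per Mb in stretches under 25 kb, 20.9 from 25 to 100 kb, 8.85 from 100 to 500 kb, 3.26 from 1 to 2 Mb and 1.65 in those of 2 Mb or more. RAD21 of untreated SMC3-AID cells had densities of 4.85, 0.666, 0.240, 0.156 and 0.0795 per Mb in the same classes. These came from 802, 370, 177, 52 and 34 peaks, whereas only 817 peaks of that list overlapped no RAD21 peak of LDB1-AID cells. Some of the counted peaks therefore overlapped a RAD21 peak at the end of a stretch. Such ends are more frequent per Mb in short stretches, which can raise the density there. CTCF-only peaks numbered 6.52 for each RAD21 peak so counted under 25 kb, 31.4 from 25 to 100 kb and 37.0 from 100 to 500 kb. They numbered 22.1 from 500 kb to 1 Mb and 20.8 in both longer classes. RAD21 peaks counted at the ends of stretches can lower this number most in the shortest class. LDB1 peaks of untreated SMC3-AID cells numbered 11.4 per Mb in the shortest class and 0.154 in the longest.

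RAD21-free stretches of 1 Mb or more numbered 370 and contained 1791 CTCF-only peaks, with a median of 4 each. Of these stretches 20 had no CTCF-only peak and 47 had 10 or more. No RAD21 peak of untreated SMC3-AID cells lay in 333 of the 370 (90.0%, 86.5 to 92.7), in 38 of the 47 (80.9%, 67.5 to 89.6) and in 295 of the other 323 (91.3%, 87.8 to 93.9). The share without it was thus not higher in stretches rich in CTCF-only peaks. The stretches were not matched for length or CTCF density, so a part of either cannot be told apart. The longest stretch spanned 13.3 Mb of X (110092623 to 123434162) and held 7 CTCF-only peaks.

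The 3 CTCF-only peaks farthest from RAD21 were on X. The peak at 61311559 to 61311958 lay 3594 kb from RAD21 in both sublines, 4354 kb from LDB1, 3654 kb from YY1 and 1676 kb from the next CTCF peak. The peaks at 119939683 to 119940082 and at 120151179 to 120151578 were neighbours, 211 kb apart, and lay 3494 and 3283 kb from RAD21 of LDB1-AID cells. From RAD21 of SMC3-AID cells they lay 7763 and 7975 kb away.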

How the data were processed

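ChIP-seq peak lists of 22 of the 65 samples were used (9 lists), and the other 43 samples were not analysed here. Per the submitters' processing notes, Bowtie2, MACS2 2.2.9.1, deepTools 3.5.1 and mm9 were used, with no role stated. The authors deposited each list as 400 bp intervals without score or signal, with the replicates of a group combined. The caller's threshold, the consensus rule and the filters are not given in the sources used here, and read depth and peak height are unknown.

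Coordinates are mm9, counted from 1. No mm9 sequence or annotation was used, so no motif, peak sequence or gene is given. Peaks were shared when they had at least 1 bp in common. Shares have Wilson and differences Newcombe 95% intervals, and medians have binomial intervals (statsmodels 0.14.6, scipy 1.17.1, Python 3.11.15). Overlaps and distances were checked against a brute-force search of simulated intervals and bedtools 2.31.1. No p-value was computed, since replicates cannot be separated.

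Named regions were the 3 longest runs, the 3 RAD21-free stretches with most members, the 3 members farthest from RAD21, the 3 largest groups chained within 25 kb, and the chromosomes with extreme shares. Members, rules and alternatives were chosen with earlier results of these data known. Alternatives were other overlap rules, autosomes, merged peaks and other RAD21 lists.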

Additional observations from a re-analysis of the deposited data

Results flagged for a closer look

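Outside chromosomes 1 to 19 and X, the CTCF list held 63 peaks on mitochondrial DNA and on unplaced or unlocalised contigs. Of these, 26 had no RAD21, LDB1 or YY1 peak (41.3%), against 49.0% on chromosomes 1 to 19 and X. They were listed because they are a signal in data that no comparison above uses. They included 2 of the 7 mitochondrial CTCF peaks, and 0 of the 26 lay on RAD21 of untreated SMC3-AID cells.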

How the results depend on the processing

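Of 34 alternative values for 8 results, 15 stayed within 1.5 times the count or within the 95% interval of the reported value, and 19 moved. The number of CTCF-only peaks stayed between 23622 (gap of at most 1 kb) and 28805 (overlap of at least 50% of both peaks). The share on SMC3-AID RAD21 was 3.38% with an overlap of at least 50%, 1.28% with midpoints within 500 bp and 0.817% with a gap of at most 1 kb. For peaks at least 1 kb from RAD21, LDB1 and YY1, an alternative added after seeing the data, it was 0.643%. The share on LDB1 of untreated SMC3-AID cells was 0.0486% with the 50% overlap and 0.334% with the 1 kb gap, and that on LDB1 after SMC3 degradation was 0.165% with the 1 kb gap. The median distance to RAD21 was 11.0 kb (50% overlap), 12.8 kb (midpoints), 14.8 kb (1 kb gap) and 28.1 kb (RAD21 of SMC3-AID cells). The median spacing was 13.1, 15.1 and 17.7 kb under the same 3 overlap rules and 16.9 kb with CTCF peaks within 1 kb merged. The share whose next CTCF peak was of the class was 55.5%, 51.0%, 49.1% and 50.6% in that order, where 53.1%, 48.2%, 43.6% and 47.8% of CTCF sites were members. These rules change the window by construction.

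No paired analysis was possible because each list combines the replicates of its group, and leaving out a replicate could not be run for the same reason. The planned sequence results were not run without an mm9 genome. Depth is unknown, so a site without a call cannot be told apart from a site with weak signal.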

Other observations

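In windows of 1 Mb with at least 5 CTCF peaks, the share of CTCF-only peaks differed little between sparser and denser windows. A CTCF peak was present in 2436 windows. Those with under 5 were left out, so these shares do not cover the places where CTCF was sparsest. Over the 1960 windows with at least 5 CTCF peaks the median share was 48.0%, with 5% of windows at or below 22.7% and 5% at or above 80.0%. In windows with 5 to 10 CTCF peaks 50.8% (Wilson 95% interval 49.1 to 52.5) of CTCF peaks were CTCF-only, and in those with 44 to 115 it was 49.5% (48.9 to 50.2). The lowest class, with 18 to 26 CTCF peaks, had 46.5% (45.5 to 47.6). All CTCF peaks were CTCF-only in 30 windows and none in 7.

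Across these windows the share correlated weakly and negatively with the number of RAD21 peaks of untreated SMC3-AID cells (Pearson's r = -0.249, Spearman's rho = -0.288) and of LDB1 peaks of the same cells (r = -0.236, rho = -0.267). The number of CTCF-only peaks correlated positively with both (r = 0.718, rho = 0.680 and r = 0.499, rho = 0.535). The rule removes CTCF peaks on LDB1-AID RAD21 and LDB1, which lowers the share where these are frequent by construction. Windows share their libraries, depth and base composition and are not replicates, so no p-value is given.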
